A study of Caenorhabditis elegans with 12 samples.

Results

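The heat shock response of C. elegans animals that lack the microRNA miR-85 is described here gene by gene. It was read from 3 libraries of miR-85(n4117) animals exposed to heat shock (HS) set against 3 control (CTL) libraries of the same strain, chosen by strain and treatment as the sample labels give them. These are 6 of the 12 samples of the series, whose other 6 are wild type (WT, Bristol N2) animals under the same HS and CTL conditions. Heat shock lasted 3 hrs at 35°C and followed 44 hrs of growth at 20°C, whereas CTL animals spent 47 hrs at 20°C. All were whole animals of the L4 stage, the last larval stage, and total RNA was sequenced after removal of ribosomal RNA. Both groups carry the deletion n4117, so the comparison shows what heat does in its presence and not what the deletion does. The deletion also removes part of F49E12.8, the gene on the opposite strand at the mir-85 locus. All 6 libraries come from a single strain and were sequenced in lane 3, with 3 independent biological replicates for each treatment.

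In the heat shock response, misfolded proteins titrate chaperones away from the transcription factor HSF-1, which then binds heat shock elements and switches on genes for heat shock proteins. The inducible HSP70 proteins and the small heat shock proteins of the HSP-16 family bind unfolded clients, while HSP90, HSP110 and their cochaperones serve folding at all temperatures. Most other transcription is dampened during a strong heat shock. MicroRNAs such as miR-85 pair with sites in messenger RNAs and lower their stability and translation, and the study examined hsp-70 as a candidate target.

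Total counts ranged from 23871531 to 25533070 in HS libraries and from 25552873 to 38586076 in CTL libraries, of which ribosomal RNA genes held 13.7% to 23.2% across the 6 libraries. The locus matched the strain label. The gene mir-85 (chromosome II, 8393553 to 8393658, plus strand) had 0 counts in each of the 6 mutant libraries, although total RNA libraries recover few microRNA reads, with 9, 6 and 2 counts in WT HS and 5, 5 and 0 counts in WT CTL libraries. F49E12.8 (II, 8392568 to 8394305, minus strand) had 11, 4 and 3 counts in miR-85(n4117) HS and 2, 0 and 2 counts in miR-85(n4117) CTL libraries, against 85, 92 and 85 counts in WT HS and 142, 220 and 78 counts in WT CTL libraries. The tissue label of whole animals also held, since markers of intestine, muscle, neurons, pharynx, hypodermis and gonad were detected. The treatment label was checked on the heat shock genes described below, which separated the groups in every library.

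Within the strain, 2 libraries stood apart from their replicates. Genes of yolk proteins, which adult animals make in the intestine, and genes of the molt differed among animals of one treatment. Yolk genes held 0.108%, 0.603% and 0.0209% of protein-coding counts in HS replicates 1, 2 and 3, against 0.151%, 0.0302% and 0.0140% in CTL replicates 1, 2 and 3. Molting genes held 0.255%, 0.0843% and 0.238% in HS and 0.272%, 0.349% and 0.395% in CTL libraries. HS replicate 2 thus had the most yolk and the least molting RNA of all 6, and CTL replicate 1 the most yolk and the least molting RNA among the controls. Many of the results that rest on either library are given with and without it.

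A minority of genes passed the limits set here for a change with heat shock, and among these the rises were larger than the falls. Counts were scaled between libraries as if most genes were unchanged, so a shift common to most genes would not show. A gene is called higher or lower here if it codes for protein, had a mean normalized count over 10 in the 6 libraries, and differed at least 2-fold with an adjusted p under 0.05 by edgeR's quasi-likelihood test. Of 15287 protein-coding genes tested, 647 (4.23%) were called higher and 489 (3.2%) were called lower in HS than in CTL animals. The fitted change was at least 4-fold for 385 of the higher and 65 of the lower genes, and at least 8-fold for 237 and 2. Among the higher genes, 70 had at most 3 counts in every CTL library. These could pass the filter only through libraries in which they were high, and add to the large rises. With at least 10 counts in every library, 317 genes were called higher and 347 lower. The median log2 fold change was 2.31 over the genes called higher and −1.35 over those called lower, against 0.03 over all protein-coding genes tested. All HS libraries lay above all CTL libraries for 643 of the 647 genes and below them for 486 of the 489, against 2834 (18.5%) and 2862 (18.7%) of all protein-coding genes tested. The calls were made on these same libraries, so this separation follows largely from the rule and adds no support. Leaving out CTL replicate 2 or CTL replicate 3 reduced the number of lower genes to 293 and 296, of which 283 and 281 belonged to the 489. Without HS replicate 2 there were 504 higher and 361 lower genes, and without CTL replicate 1 there were 651 and 502. Gene lists by function, used below, held 126 of the higher and 67 of the lower genes, while 521 and 422 were in no list. The called genes of each list are to be read beside the 4.23% higher and 3.2% lower of all protein-coding genes tested.

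**Figure D1:**
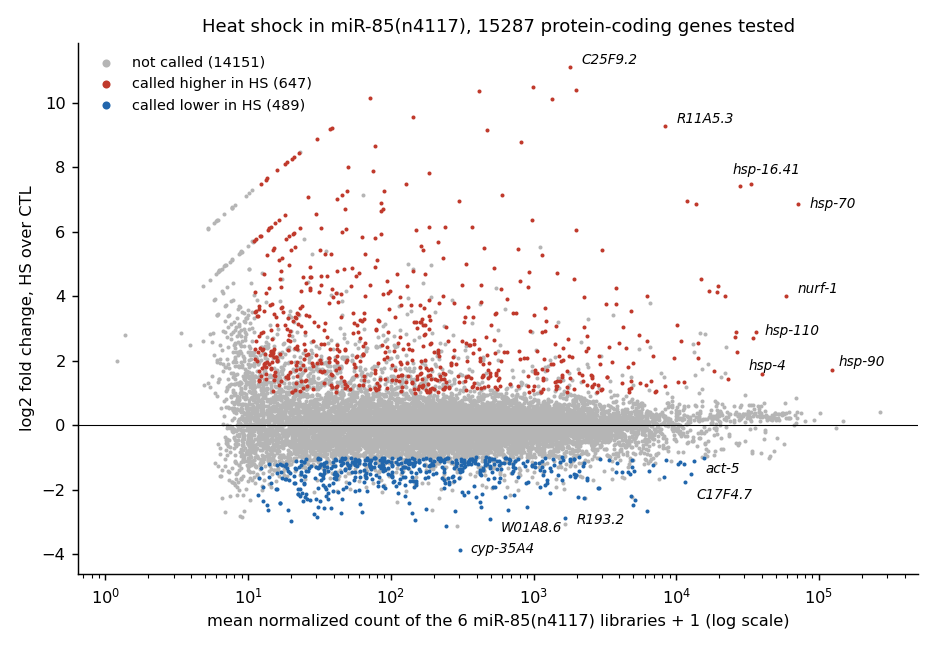
The log2 fold change of each protein-coding gene tested (HS over CTL, vertical axis) against the mean normalized count of the 6 miR-85(n4117) libraries (horizontal log axis), with the 647 genes called higher in red, the 489 called lower in blue and the others in grey. The higher genes reach much larger changes than the lower ones, and the heat shock genes hsp-70 and hsp-16.41 lie far right and high. Diagonal lines of points at the left are genes with few or no counts in CTL libraries, whose fitted change depends on a small constant added in the fit.

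With all libraries, all inducible HSP70 genes and the 2 most abundant hsp-16 genes rose more than 100-fold. The gene hsp-70 (chromosome I, 9320325 to 9322519), which codes for the main inducible HSP70 of the cytosol, had normalized counts of 137726, 122975 and 162793 in HS animals, against 334, 1690.1 and 1648 in CTL animals. Its log2 fold change was 6.85 (SE 0.697, adjusted p = 0.000111 by edgeR). CTL replicate 1 lay well below the other controls, and without it the log2 fold change was 6.40. The neighbours F44E5.4 and F44E5.5, a divergent pair of inducible HSP70 genes on chromosome II separated by 350 bases, are near-identical in sequence, so reads may be split between them. F44E5.4 had counts of 22136, 17060.1 and 32078 in HS and 50.1, 238 and 281 in CTL animals (log2 fold change 6.97, SE 0.823, adjusted p = 0.0003 by edgeR), and F44E5.5 had a log2 fold change of 6.88. In each of the 3 genes the HS libraries were far above the controls and CTL replicate 1 was the lowest. Without CTL replicate 1 the log2 fold changes of F44E5.4 and F44E5.5 were 6.51 and 6.44.

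The hsp-16 genes code for small heat shock proteins of the alpha-crystallin family, which hold unfolded proteins in a refoldable state. The pair hsp-16.2 and hsp-16.41 lies head to head on chromosome V with 220 bases between the genes. The gene hsp-16.41 had counts of 63855, 55968 and 78604 in HS animals and 50.1, 592 and 464 in CTL animals (log2 fold change 7.49, SE 0.819, adjusted p = 0.000173 by edgeR). The gene hsp-16.2 had counts of 56139, 48995 and 62877 in HS and 47.0, 475 and 465 in CTL animals (log2 fold change 7.41, SE 0.853, adjusted p = 0.000252 by edgeR). Here too the groups did not overlap and CTL replicate 1 was well below the other controls. Without that library the log2 fold changes were 6.96 and 6.89. The second locus of the family was far less abundant in these counts. The gene hsp-16.48 (V, 9088131 to 9088617) had counts of 38.01, 30.5 and 61.3 in HS animals and 0 in every CTL library, which makes it at least 18.7-fold higher against a floor of 3 counts per library. A further copy (V, 9089280 to 9089766), which the annotation also calls hsp-16.48, had 42.5, 51.5 and 132 in HS and 0 in every CTL library and was at least 32.6-fold higher. Copies at this locus are near-identical, and reads that match more than 1 copy may have been left out of the counts. In all, 4 of 5 hsp-16 genes tested were called higher, and the remaining copy, hsp-16.1 (V, 9090077 to 9090604), had counts of 20.1, 8.41 and 23.6 in HS and 0 in CTL libraries with a mean under 10. The median log2 fold change of the 5 was 7.49, or 5.02 with the genes at 0 set to their bounds.

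Per length, these RNAs became some of the most abundant of the animal. In TPM, which are counts per length scaled to the same sum over protein-coding genes in each library, hsp-16.41 averaged 5375 in HS and 34.7 in CTL animals, which moved it to rank 9 in HS against rank 3502 in CTL animals. The gene hsp-16.2 averaged 5050.1 TPM (rank 16) in HS and 34.3 TPM (rank 3553) in CTL animals, and hsp-70 averaged 3574 TPM (rank 58) in HS and 35.9 TPM (rank 3404) in CTL animals. The inducible HSP70 genes held 0.900%, 0.781% and 1.09% of protein-coding counts in HS libraries, against 0.00246%, 0.0120% and 0.0122% in CTL libraries.

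Among other small heat shock proteins 4 of 10 genes rose and none fell. The gene hsp-12.6 had counts of 461, 378 and 419 in HS animals and 3.13, 7.97 and 13.6 in CTL animals (log2 fold change 5.69, SE 0.474, adjusted p = 2.23e-05 by edgeR), and its neighbour hsp-12.3 on chromosome IV had a log2 fold change of 3.27. F08H9.4 rose by 3.28 and hsp-43 by 2.08 on the log2 scale. The other 6 were not called, among them hsp-17 with counts of 1786, 1356 and 1348 in HS and 664, 1058 and 1126 in CTL animals. The median of the list was 1.61, against 0.03 over all genes.

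Of 16 constitutive cytosolic chaperones and cochaperones 5 rose and none fell, from far higher starting levels. The HSP90 gene hsp-90 had counts of 186819, 196157 and 186526 in HS and 61757, 56689 and 57054 in CTL animals (log2 fold change 1.70, SE 0.145, adjusted p = 2.4e-05 by edgeR). It averaged 4221 TPM (rank 36) in HS and 1508 TPM (rank 134) in CTL animals. The gene hsp-110, whose protein exchanges nucleotides on HSP70 and helps to dissolve aggregates, had counts of 58704, 65636 and 54694 in HS and 9211, 9469.6 and 8972 in CTL animals (log2 fold change 2.69, SE 0.229, adjusted p = 2.36e-05 by edgeR). Replicates of either treatment were close to each other for both genes, including CTL replicate 1. The cochaperones of HSP70 unc-23 (a BAG-domain protein), dnj-13 (a J-domain protein) and bag-1 rose by 2.79, 2.10 and 1.38 on the log2 scale. The constitutive HSP70 gene hsp-1 had counts of 86606, 91451 and 88445 in HS and 56173, 47916 and 46059 in CTL animals, a log2 fold change of 0.83 that passed the test (adjusted p = 0.0109 by edgeR) but not the 2-fold limit. None of 14 genes of the CCT chaperonin and prefoldin, which fold actin and tubulin, was called, and their median was 0.20.

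**Figure D2:**
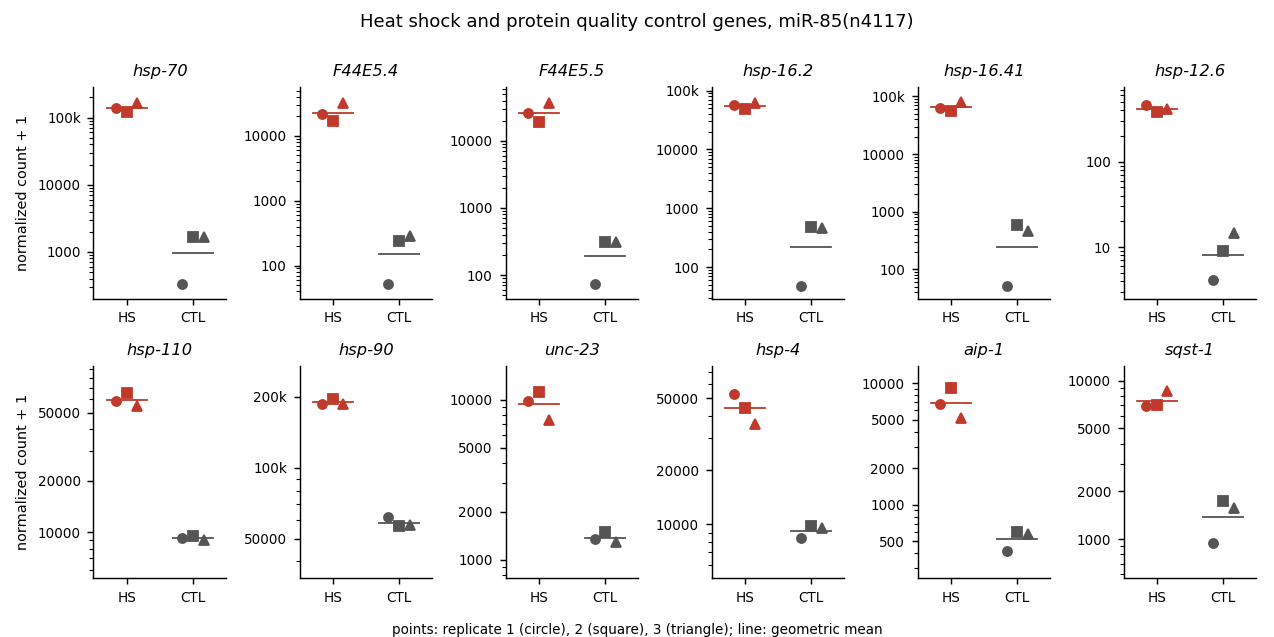
Normalized counts plus 1 (vertical log axes, which differ between panels) of 12 heat shock and protein quality control genes in the HS (red, left) and CTL (grey, right) libraries of miR-85(n4117), with replicates by symbol and the geometric mean as a line. The groups do not overlap in any panel. CTL replicate 1 (circle) lies well under the other controls for the HSP70 and hsp-16 genes but not for hsp-110 or hsp-90.

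In the endoplasmic reticulum 2 of 17 genes of the unfolded protein response rose. The gene hsp-4, the BiP chaperone of that compartment, had counts of 52947, 44131 and 36119 in HS and 8441, 9846 and 9514 in CTL animals (log2 fold change 2.26, SE 0.216, adjusted p = 5.87e-05 by edgeR). The regulator xbp-1 rose by 1.07 on the log2 scale, and by 0.91 without HS replicate 1, which is under the limit. The other 15 were not called. The HS libraries lay below the CTL libraries for 9 of the 17 and above them for 4, against 18.7% and 18.5% of all protein-coding genes tested. The second BiP gene hsp-3, for example, had counts of 22354, 22010.2 and 17922 in HS and 25891, 26417 and 26643 in CTL animals. The list as a whole had a median of −0.33. None of 11 genes of the mitochondrial unfolded protein response was called, with hsp-6 nearest at a log2 fold change of 0.99 and hsp-60 at 0.38, and 1 gene was called higher without CTL replicate 1, HS replicate 1 or HS replicate 3.

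Protein disposal changed in a few genes. The gene aip-1, whose AIRAP protein adapts the proteasome to damaged proteins, had counts of 6767, 9211 and 5237 in HS and 415, 595 and 569.9 in CTL animals (log2 fold change 3.75, SE 0.254, adjusted p = 3.98e-06 by edgeR). The autophagy receptor gene sqst-1 rose by 2.41 on the log2 scale. These were the only called genes among 12 of AIRAP, CDC-48 and ubiquitin, since cdc-48.1 and cdc-48.2 had log2 fold changes of −0.30 and −0.48. None of 32 subunits of the 26S proteasome was called, but their median was −0.26. The HS libraries were all below the CTL libraries for 21 of them, against 18.7% of all protein-coding genes tested. None of 18 autophagy genes was called (median 0.14). Among 15 stress transcription regulators only zip-10 and cebp-1 rose, both bZIP factors. The gene zip-10 had counts of 608, 426 and 269 in HS and 52.6, 56.7 and 48.09 in CTL animals (log2 fold change 3.05), and cebp-1 had 835, 603 and 498 in HS and 107, 131 and 99.4 in CTL animals (log2 fold change 2.52). The gene hsf-1 itself had counts of 795, 897 and 741 in HS and 679.9, 606 and 581 in CTL animals and was not called (log2 fold change 0.38, adjusted p = 0.0781 by edgeR).

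Most of the largest fitted rises were outside the heat shock proteins. C25F9.2 (V, 19421471 to 19426774) had counts of 5022, 2161 and 3675 in HS animals and 1.88, 0 and 2.40 in CTL animals, at least 1564-fold higher in HS. ZC21.10 (III, 8530072 to 8531350) had 2738, 2247 and 3049 in HS and 1.88, 2.66 and 2.40 in CTL animals, at least 1158-fold higher. Y81B9A.1 (X, 9192444 to 9194382) was at least 859-fold higher and Y53F4B.7 (II, 14992898 to 14993403) at least 405-fold. In CTL libraries these genes were at the level of a few reads or none. R11A5.3 (I, 7862529 to 7863569) was detectable in all controls and had counts of 15236, 15739 and 18965 in HS and 11.3, 34.5 and 35.3 in CTL animals (log2 fold change 9.28, SE 0.434, adjusted p = 3.71e-07 by edgeR). Of the 12 largest fitted rises 5 have a name that tells a function, the nuclear hormone receptor gene nhr-241, the chemoreceptor genes srt-42, str-118 and srd-68 and the second copy of hsp-16.48. Counts of str-118 were 796, 1114 and 584 in HS and 0.627, 0.885 and 0 in CTL animals, at least 359-fold higher, and srd-68 was at least 122-fold higher. Counts of nhr-241 were 173, 183 and 69.5 in HS and 0 in CTL animals, at least 61.3-fold higher. For genes with 0 counts in every CTL library the rank rests on the small constant added in the fit. A rise larger than that of hsp-70 is therefore not shown for nhr-241. Of the 647 genes called higher, 70 had at most 3 counts in every CTL library. Such genes could enter the test only through libraries in which they were high, so their number carries no weight.

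Chemoreceptor genes, a large class of G-protein-coupled receptors that sensory neurons use, recurred in this set. The class was picked after its values had been seen. Of 1364 annotated genes of the sr and str families 155 were tested, and 31 of these were called higher and 3 lower. The shares over all protein-coding genes tested were 4.23% higher and 3.2% lower. A receptor gene that is silent at 20°C entered the test only if it was high in HS, so the 155 do not stand for the class. The gene srt-42 (V, 1807460 to 1809582) had counts of 3217, 5891 and 2692 in HS and 2.51, 1.77 and 4.01 in CTL animals (log2 fold change 10.41, SE 0.612, adjusted p = 2.11e-06 by edgeR). It starts 1584 bases after the end of hsp-16.41. On the other side srt-41, 1190 bases from hsp-16.2, had counts of 332, 487 and 273 in HS and 2.51, 0 and 1.603 in CTL animals (log2 fold change 7.82).

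Genes called higher often lay next to each other. Another gene called higher lay within 5 kb of 217 (33.5%) of the 647 genes, against 1454 (9.51%) of all protein-coding genes tested, while a gene called lower lay within 5 kb of 72 (14.7%) of the 489 lower genes, against 1119 (7.32%) of all. There were 28 runs of at least 3 higher genes with gaps under 5 kb, which held 97 genes. The locus of hsp-16.2 was such a run, with srt-41, hsp-16.2, hsp-16.41, srt-42 and Y46H3A.5 from 1799506 to 1814884 on chromosome V. Behind hsp-90 on the same strand lay C47E8.11, with counts of 1629, 2534 and 1023 in HS and 79.0, 91.2 and 93.8 in CTL animals, and gasr-8, with 1097, 2036 and 452 in HS and 7.52, 6.197 and 11.2 in CTL animals. Their log2 fold changes were 4.30 and 7.15. Behind aip-1 lay end-3, which codes for a GATA factor of the embryonic endoderm, with counts of 96.1, 319 and 30.6 in HS and 3.76, 4.43 and 6.41 in CTL animals (log2 fold change 4.91), followed by srh-308 on the other strand. The counts do not tell separate transcripts from reads that run on from the gene before. The largest run, picked after its values had been seen, held 6 genes of the nspe family, which codes for small nematode-specific peptides, from 12612518 to 12621958 on chromosome II. All 8 nspe genes were called higher, and nspe-1 had counts of 4212, 3163 and 3723 in HS and 192, 175 and 107 in CTL animals (log2 fold change 4.55).

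A further abundant rise was that of nurf-1 (II, 14390713 to 14407911), which codes for the largest subunit of the nucleosome remodelling factor NURF. It had counts of 115944, 103100.0 and 115166 in HS and 4355, 8055 and 8314 in CTL animals (log2 fold change 4.01, SE 0.3, adjusted p = 9.08e-06 by edgeR). The HS libraries were within a narrow range and more than 12 times the highest control.

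Histone genes rose in part. Of 51 tested 20 were called higher and 1, his-60, lower, against 4.23% and 3.2% of all protein-coding genes tested. Their median was 0.27, and none was called lower when any single library but HS replicate 3 was left out. The gene his-41 (V, 9545536 to 9546264) had counts of 6864, 5868 and 8888 in HS and 352, 376 and 397 in CTL animals (log2 fold change 4.26, SE 0.191, adjusted p = 2.53e-07 by edgeR). It overlaps C50F4.6 on the same strand, which had a log2 fold change of 6.06, so that reads of the shared stretch cannot be assigned to either. The gene his-38 (X, 7309564 to 7309875) had counts of 2007, 2009 and 2634 in HS and 36.97, 69.1 and 64.9 in CTL animals (log2 fold change 5.29), and the linker histone gene his-24 had 1537, 1112 and 1477 in HS and 294, 282 and 403 in CTL animals (log2 fold change 2.07). In all of these the groups were far apart. The gene his-39 (V, 8536513 to 8536716) was at least 39.8-fold higher, and its neighbour otpl-4, an otopetrin-like gene 614 bases away, was at least 66.0-fold higher. The copy of his-58 at 11339735 to 11340106 on chromosome IV had counts of 36.9, 33.6 and 33.0 in HS and 0 in CTL libraries, at least 14.9-fold higher. Most core histone genes are near-identical copies, so counts of single genes are uncertain. In contrast, the replication-independent genes his-71 and his-72 had log2 fold changes of 0.12 and 0.06 and were not called. All histone genes together held 0.408%, 0.437% and 0.489% of protein-coding counts in HS libraries, against 0.424%, 0.438% and 0.474% in CTL libraries, which overlap.

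**Figure D3:**
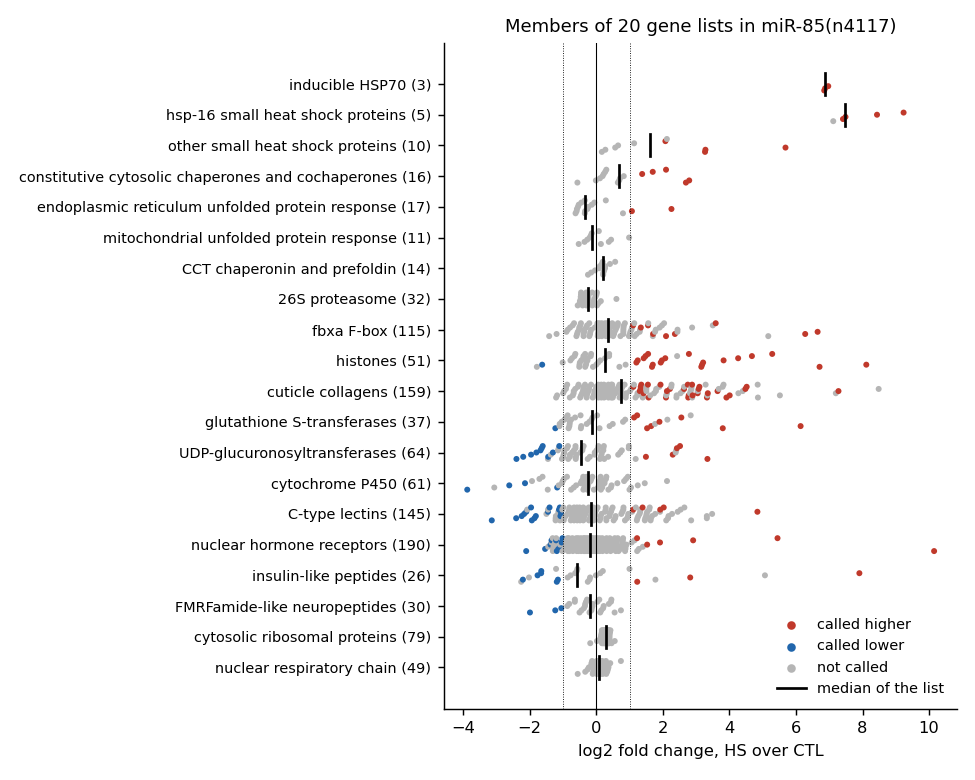
Log2 fold changes (HS over CTL, horizontal axis) of the protein-coding genes tested in 20 gene lists, 1 point per gene, red if called higher, blue if called lower and grey if not called, with the list's median as a bar, its number of genes in parentheses and dotted lines at the 2-fold limits. The heat shock protein lists lie to the right, the C-type lectin, UDP-glucuronosyltransferase and insulin lists have called genes on both sides, and the ribosomal, respiratory and proteasome lists are narrow with no called gene.

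Cuticle collagens and the stage-linked genes moved with single libraries. Of 159 collagen genes tested 29 were called higher and none lower, against 4.23% and 3.2% of all protein-coding genes tested. Their median was 0.74, but the number called higher was 5 without CTL replicate 2, 6 without CTL replicate 3, 13 without HS replicate 2 and 41 without CTL replicate 1. The gene col-80 shows this, with counts of 3435, 29433 and 2256 in HS and 1486, 349 and 343 in CTL animals, a log2 fold change of 4.01 that was 1.97 and not called without HS replicate 2, 5.08 without CTL replicate 1, and 3.67 and not called without CTL replicate 2 or CTL replicate 3. Of the 29 collagens, 4 kept their calls when any single library of the strain was left out, dpy-17 and dpy-14, both needed for body shape, col-51 and col-150. The gene dpy-17 had counts of 1219.7, 2632 and 788 in HS and 57.02, 57.5 and 93.0 in CTL animals (log2 fold change 4.48, SE 0.469, adjusted p = 0.000134 by edgeR, and 3.86 without HS replicate 2), and col-51 was at least 76.5-fold higher. All collagen genes together held 7.44%, 7.40% and 8.59% of protein-coding counts in HS and 6.30%, 6.34% and 5.90% in CTL libraries.

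None of 6 yolk protein genes was called with all libraries, and 2 were called higher without CTL replicate 1. The gene vit-6 had counts of 12020.1, 63858 and 3121 in HS and 15787, 3625 and 1599.8 in CTL animals, and the list's median was 1.87, but 0.05 without HS replicate 2 and 3.73 without CTL replicate 1. The molting gene mlt-10 had counts of 3562, 419 and 4372 in HS and 4000.5, 6985 and 8469 in CTL animals and was not called. Of 24 molting and apical matrix genes none was called higher and 1, mlt-2, lower, with a median of −0.52. The call of mlt-2 held only when CTL replicate 1 was left out among the single libraries, and without HS replicate 2 none was called and the median was −0.19. How far differences in stage between libraries enter the collagen counts was not tested.

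**Figure D4:**
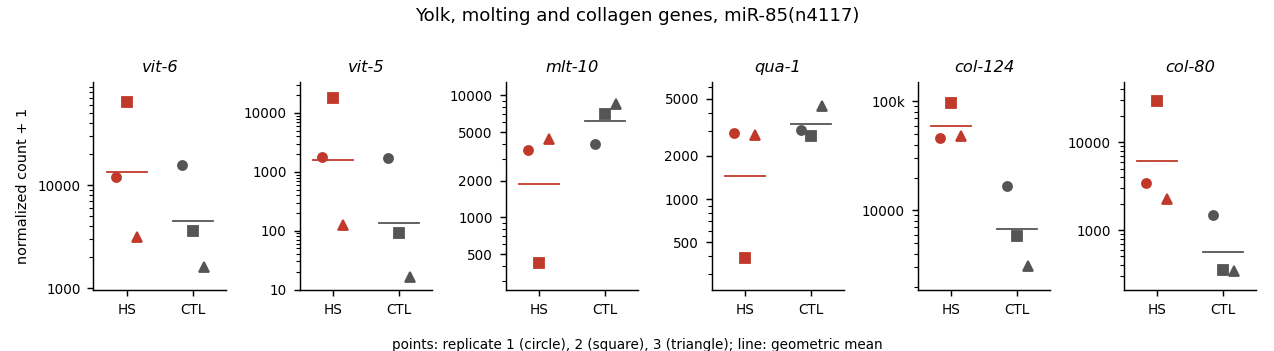
Normalized counts plus 1 (vertical log axes, which differ between panels) of 2 yolk, 2 molting and 2 collagen genes in the HS (red, left) and CTL (grey, right) libraries of miR-85(n4117), with replicates by symbol and the geometric mean as a line. HS replicate 2 (square) is highest for vit-6, vit-5, col-124 and col-80 and lowest for mlt-10 and qua-1, and CTL replicate 1 (circle) is the highest control for the yolk and collagen genes.

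Stress defence genes outside the chaperones rose in small groups, where 4.23% of all protein-coding genes tested were called higher and 3.2% lower. Of 37 glutathione S-transferase genes, which detoxify electrophiles, 8 were called higher and 1 lower (5 higher without CTL replicate 1, CTL replicate 3 or HS replicate 2, and 4 lower without CTL replicate 1), with a median of −0.14. The gene gst-8 had counts of 743, 959 and 468 in HS and 3.76, 10.6 and 16.8 in CTL animals (log2 fold change 6.14, SE 0.604, adjusted p = 8.98e-05 by edgeR). The more abundant gst-36 had 6863, 6911 and 6463 in HS and 963, 1286 and 1190.2 in CTL animals (log2 fold change 2.56, SE 0.154, adjusted p = 1.85e-06 by edgeR). Of 15 genes against oxidants and metals 3 rose, the superoxide dismutase genes sod-3, sod-4 and sod-5. The gene sod-5 had counts of 151, 64.1 and 77.8 in HS and 8.15, 8.85 and 8.82 in CTL animals (log2 fold change 3.49), while the call of sod-3 was lost when any single library but HS replicate 2 was left out. Of 11 trehalose and glycerol genes 2 rose. The trehalase gene tre-5 had counts of 1271, 1471 and 1386 in HS and 157, 117.8 and 91.4 in CTL animals (log2 fold change 3.49). The trehalose synthase gene tps-1 rose by 1.02 on the log2 scale, and by 0.98 and 0.96, under the limit, without CTL replicate 1 and without HS replicate 2.

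The next 3 lists stand beside the 4.23% called higher and 3.2% called lower of all protein-coding genes tested. Of 82 epidermal and intestinal antimicrobial genes 10 were called higher and 7 lower. The higher ones belong to the peptide families cnc, nlp and fipr and to irg-2, and the lower ones are lysozymes and saposin-like genes (lys and spp). The gene cnc-11, a caenacin of the epidermis, had counts of 184, 70.4 and 86.0 in HS and 1.88, 6.197 and 4.81 in CTL animals (log2 fold change 4.74, SE 0.549, adjusted p = 0.000217 by edgeR). The gene lys-2 had counts of 567, 379 and 514 in HS and 1303, 2683 and 2364 in CTL animals (log2 fold change −2.12, SE 0.28, adjusted p = 0.000523 by edgeR). The numbers fell to between 5 and 6 higher without CTL replicate 2, CTL replicate 3 or HS replicate 2, and to 4 lower without any one of these or without HS replicate 1. Of 115 genes of the fbxa family, which code for F-box proteins of ubiquitin ligases, 9 rose and none fell (median 0.35). Of the 9, 5 kept their calls without any single library of the strain, against 53.3% of the 647 genes called higher. The gene fbxa-48 had counts of 159.9, 122.99 and 216 in HS and 0.627, 1.77 and 2.40 in CTL animals, at least 71.8-fold higher. Of 25 genes of the pals family and its ubiquitin ligase partners 3 rose, but only pals-20 kept its call without any single library, and without CTL replicate 2 it was the only one called. It had counts of 36.9, 43.1 and 38.9 in HS and 3.76, 0.885 and 5.61 in CTL animals (log2 fold change 3.46). The gene lies opposite Y82E9BR.5 on chromosome III, which also rose (log2 fold change 2.06), and the counts were made by strand.

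Falls were smaller. Of the 489 lower genes 44.4% kept their calls without any single library of the strain, against 53.3% of the 647 higher genes. The largest was that of the cytochrome P450 gene cyp-35A4, with counts of 47.0, 15.8 and 53.0 in HS and 149, 713 and 835 in CTL animals (log2 fold change −3.87, SE 0.896, adjusted p = 0.015 by edgeR). Without CTL replicate 3 it was −3.48 and narrowly missed the threshold (adjusted p = 0.0505 by edgeR). Without CTL replicate 1, the lowest control, it was −4.33. Several large falls kept their calls without any single library. W01A8.6 (I, 7070649 to 7074721) had counts of 99.5, 102 and 146 in HS and 653, 1052 and 900.1 in CTL animals (log2 fold change −2.91, SE 0.276, adjusted p = 5.73e-05 by edgeR). R193.2 (X, 1132993 to 1148585) had 515, 509 and 177 in HS and 2865, 3029.6 and 2891 in CTL animals (log2 fold change −2.87, SE 0.53, adjusted p = 0.00462 by edgeR), so that the controls agreed closely and HS replicate 3 was the lowest. F10C2.3, F23F12.3 and Y14H12A.1 fell by 2.73, 2.73 and 2.71 on the log2 scale. None of these genes has a name that tells its function. The most abundant fall was that of T25C12.3, with counts of 10535, 12789 and 7302 in HS and 20641, 21508 and 20457 in CTL animals (log2 fold change −1.03, adjusted p = 0.00699 by edgeR, and −0.84 without HS replicate 3, under the limit). It was followed in abundance by act-5, described below, F28B4.3, with counts of 6315, 7782 and 5521 in HS and 16550.2, 21407 and 18749 in CTL animals (log2 fold change −1.53), and C17F4.7, with 5968, 2829.8 and 6785 in HS and 16637, 16360.2 and 20439 in CTL animals (log2 fold change −1.78).

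Some genes of the intestine fell as well. Of 8 intestinal markers 3 fell, pept-1, vha-6 and act-5, and none rose, with a median of −0.70. The gene pept-1, the oligopeptide transporter of the gut, had counts of 1091, 1254 and 677 in HS and 2925, 3006 and 2902 in CTL animals (log2 fold change −1.55, SE 0.281, adjusted p = 0.00389 by edgeR). The gene act-5, the actin of the microvilli, had 7736, 12907 and 4534 in HS and 18788, 17468 and 18697 in CTL animals, a log2 fold change of −1.13 whose call held only when HS replicate 2 was left out among the single libraries. The proton pump gene vha-6 fell by 1.08 on the log2 scale, and its change was −0.91 without HS replicate 3 and −0.996 without HS replicate 1, under the limit. The list did not move as a whole, since ifb-2, an intermediate filament of the gut, had 8721, 12860.5 and 10274 in HS and 7019, 6659.5 and 6068 in CTL animals, and the transcription factor gene elt-2 had a log2 fold change of 0.12. The 8 markers held 0.293%, 0.356% and 0.398% of protein-coding counts in HS libraries, against 0.530%, 0.609% and 0.646% in CTL libraries. In whole animals, fewer cells of a type and less RNA per cell cannot be told apart. Markers of body wall muscle, pharynx, hypodermis and gonad had no called gene, with medians of 0.48, 0.38, −0.04 and 0.44, and of 8 neuronal markers only rgef-1 fell (log2 fold change −1.14, and −0.92 without HS replicate 2, under the limit).

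Lysozymes of the gut, grouped after their values had been seen, moved the same way. Of 12 lys and ilys genes tested 5 fell and none rose, against 3.2% and 4.23% of all protein-coding genes tested. The gene ilys-5 had counts of 6631, 7664 and 6524 in HS and 15769, 16528 and 15280.3 in CTL animals (log2 fold change −1.19, SE 0.176, adjusted p = 0.00108 by edgeR), and lys-1 had 4392, 3197 and 4769 in HS and 8709.7, 11023 and 9449 in CTL animals (log2 fold change −1.24). Replicates of either treatment lay close together, and the groups were well apart.

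**Figure D5:**
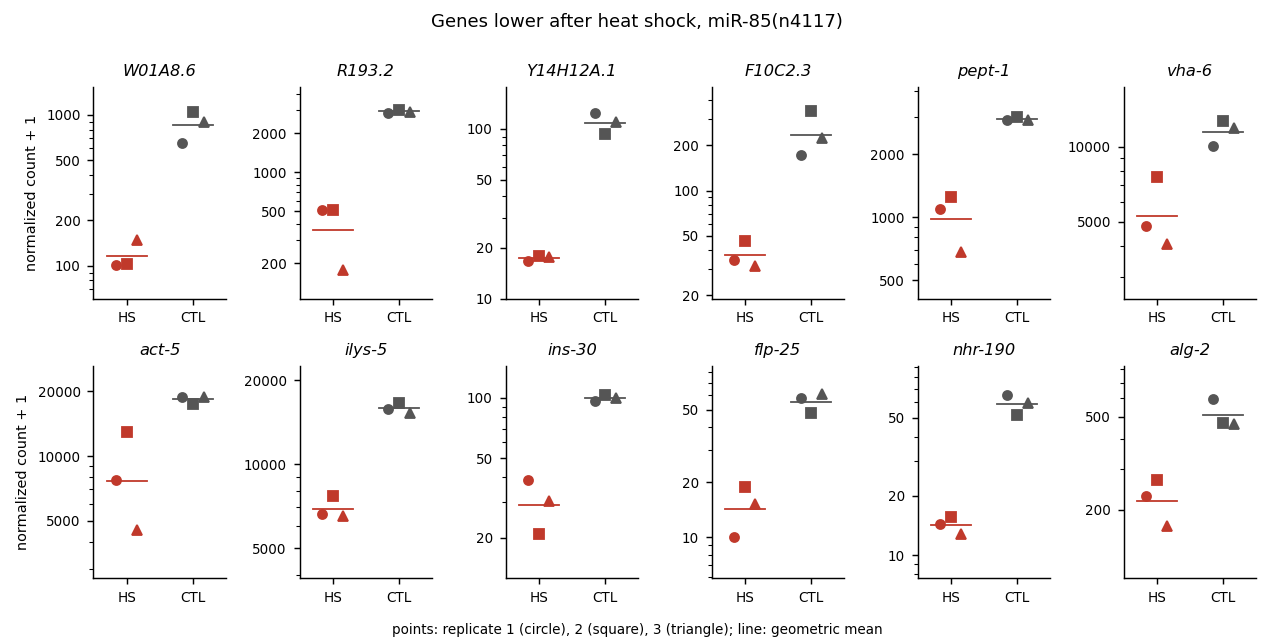
Normalized counts plus 1 (vertical log axes, which differ between panels) of 12 genes called lower in the HS (red, left) and CTL (grey, right) libraries of miR-85(n4117), with replicates by symbol and the geometric mean as a line. The groups do not overlap in any panel, and the spread among HS libraries is widest for R193.2 and act-5, where HS replicate 3 (triangle) is lowest.

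Large families of secreted, detoxifying and nuclear receptor proteins had genes called lower, where the share over all protein-coding genes tested was 3.2%. Of 145 C-type lectin genes, many of which act in defence, 16 fell and 5 rose (median −0.17), the rises being no more frequent than the 4.23% of all genes, and without CTL replicate 2 or CTL replicate 3 the lower ones were 9 and 8. The higher ones were 3 without CTL replicate 1 or HS replicate 2 and 2 without CTL replicate 2. The gene clec-80 had counts of 157, 84.1 and 174 in HS and 413, 727 and 819 in CTL animals (log2 fold change −2.24, SE 0.344, adjusted p = 0.00146 by edgeR). The gene clec-196 had 118.5, 59.9 and 89.5 in HS and 3.76, 2.66 and 2.40 in CTL animals (log2 fold change 4.84, SE 0.638, adjusted p = 0.000521 by edgeR). Both kept their calls without any single library.

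Of 64 UDP-glucuronosyltransferase genes, which conjugate toxins, 10 fell and 5 rose (median −0.45), but 5 fell and 3 rose without CTL replicate 2 or without CTL replicate 3, and 6 fell without HS replicate 1. The gene ugt-27 had counts of 29.1, 51.5 and 40.1 in HS and 5.64, 10.6 and 4.81 in CTL animals (log2 fold change 2.52). Of 61 cytochrome P450 genes 4 fell and none rose (median −0.25). The steadiest was cyp-33A1, with counts of 164, 213 and 157 in HS and 380.4, 441 and 385 in CTL animals (log2 fold change −1.17). Without CTL replicate 2, CTL replicate 3 or HS replicate 1 the number of lower P450 genes was 2, 1 and 2. These numbers are near or under the 3.2% of all genes. Of 190 nuclear hormone receptor genes 11 fell and 6 rose (median −0.18). Without CTL replicate 2 there were 6 lower, which is near the 3.2% of all genes. The rises were again no more frequent than among all genes. The gene nhr-190 had counts of 13.4, 14.7 and 11.8 in HS and 63.9, 50.5 and 58.5 in CTL animals (log2 fold change −2.10), with no overlap.

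Signalling peptides made up 2 lists. Of 26 insulin-like peptide genes 6 fell and 3 rose, with a median of −0.57, and 3 fell without HS replicate 2. Among all protein-coding genes tested 3.2% were called lower and 4.23% higher. The neighbours ins-30 and ins-26 on chromosome I both fell, with counts of 38.01, 19.97 and 29.5 in HS and 95.9, 102 and 99.4 in CTL animals for ins-30 (log2 fold change −1.76, SE 0.262, adjusted p = 0.00111 by edgeR). The gene ins-4 rose, with 234, 296 and 382 in HS and 32.6, 53.1 and 43.3 in CTL animals (log2 fold change 2.82, SE 0.461, adjusted p = 0.00219 by edgeR). Counts of ins-39 were 30.2, 24.2 and 35.3 in HS and 0 in CTL animals, at least 12.9-fold higher. Of 30 FMRFamide-like neuropeptide genes 3 fell and none rose. Without HS replicate 2 or CTL replicate 3 flp-25 alone fell, which is near the 3.2% of all genes with all libraries. The gene flp-25 had counts of 8.94, 17.9 and 14.1 in HS and 57.02, 46.9 and 60.1 in CTL animals (log2 fold change −1.99, SE 0.354, adjusted p = 0.00348 by edgeR).

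Basic cell functions had few or no called genes. Of 79 cytosolic ribosomal protein genes none was called, but their changes were alike, with a median of 0.29 and HS libraries all above CTL libraries for 63, against 18.5% of all genes. They held 14.998%, 14.2% and 16.09% of protein-coding counts in HS and 13.4%, 13.8% and 14.1% in CTL libraries. None was called among 66 mitochondrial ribosomal proteins, 40 translation factors, 49 nuclear genes of the respiratory chain, 21 genes of glycolysis and gluconeogenesis, 8 SR splicing factors, 21 germ cell genes, 20 oocyte and embryo genes and 11 heterochronic timing genes. Over these 8 lists the medians ranged from −0.02 to 0.27. That of the oocyte and embryo list was −0.40 without HS replicate 2. Of 29 major sperm protein genes, whose reads are shared among close copies, only msp-74 fell (log2 fold change −1.22), and of 22 fatty acid desaturation and elongation genes only elo-5 (−1.64), whose call held only when HS replicate 2 was left out among the single libraries.

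Within the microRNA pathway itself 1 of 16 genes fell and 1 rose, against 3.2% and 4.23% of all protein-coding genes tested. In a list of 16 genes, 1 call each way does not set the pathway apart. The Argonaute gene alg-2, which acts with alg-1 in microRNA silencing, had counts of 228, 267 and 168 in HS and 598, 468 and 467 in CTL animals (log2 fold change −1.21, SE 0.204, adjusted p = 0.0025 by edgeR), a call that held without any single library. The Argonaute gene alg-5 had 1433, 2225 and 1169.9 in HS and 992, 593 and 623 in CTL animals (log2 fold change 1.13), and its call was lost without CTL replicate 2, CTL replicate 3 or HS replicate 2 (0.99, 1.02 and 0.82). The alg-1 gene was not called.

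Genes of RNA classes other than messenger RNA, which the calls leave out, passed the limits on the mean, the fold and the adjusted p by edgeR more often as higher than as lower in HS, though most genes of most classes passed in neither direction. Past these limits and higher in HS were 60 of 156 snoRNA genes (38.5%), 90 of 293 genes annotated as ncRNA (30.7%), 25 of 43 tRNA genes (58.1%), 13 of 23 microRNA genes (56.5%) and 7 of 13 piRNA genes (53.8%). The same held for 8 of 24 antisense RNA genes (33.3%), 17 of 71 lincRNA genes (23.9%), 7 of 36 snRNA genes (19.4%) and 68 of 607 pseudogenes (11.2%), against 4.23% of protein-coding genes. Lower were 1 microRNA gene (4.35%), 1 lincRNA gene (1.41%) and 7 pseudogenes (1.15%), and 0 genes of the other classes. None of 6 ribosomal RNA genes passed. Small RNAs that are silent at 20°C entered the test only where they were high. These shares therefore describe the genes tested and are not comparable with that of protein-coding genes. Libraries of this kind recover few reads of mature small RNAs. Whether reads on microRNA, piRNA and tRNA genes come from overlapping or neighbouring transcripts was not tested. The snoRNA genes held on average 0.582% of counts outside ribosomal RNA in HS libraries and 0.242% in CTL libraries (exact permutation test of 3 libraries against 3, two-sided, p = 0.1, the smallest it can give). Whether RNA fragment length or the depletion of ribosomal RNA moved with the treatment was not tested.

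Beside the mutant response stands that of WT animals, in which 898 genes (5.87%) were called higher and 802 (5.25%) lower by the same rule. The WT libraries were less even than those of the mutant. WT CTL replicate 3 had 65.5% of its counts in ribosomal RNA genes and 9505142 protein-coding counts, against 24.98% and 27.1% of counts in ribosomal RNA and 23555892 and 19762894 protein-coding counts in the other WT controls. Without it 873 genes were called higher and 709 lower in WT, 863 genes were called in the same direction in both strains, and 0 were called for the interaction. WT calls moved more without WT CTL replicate 2 (548 higher) or WT HS replicate 2 (493 lower). Of the 1136 genes called in the mutant (7.43%), 862 were called in the same direction in WT and 0 in the opposite one. The other 274 were not called in WT, and 267 of them had a WT change in the same direction. The share of all genes tested with the same direction in both strains is not given here, so this number describes these genes only. The test of the difference itself, the interaction of strain and heat shock, called 0 genes by edgeR, with 377 of 16585 genes (2.27%) of all classes at an unadjusted p under 0.05 and 1 call by DESeq2. Among the 274 genes called in the mutant alone 29 had such a p, so a call in the mutant alone does not show a difference between the strains.

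Of the genes called in the mutant, those with the smallest interaction p went both ways, and all had an adjusted p of 1. Y82E9BR.5 (III, 1384370 to 1388388) had counts of 145, 128 and 157 in HS and 30.7, 39.8 and 32.9 in CTL animals of the mutant, and its log2 fold change was 2.06 in miR-85(n4117) and 0.11 in WT (interaction 1.95). ZK6.8 had counts of 331, 347 and 205 in HS and 105, 103 and 121 in CTL animals of the mutant, with log2 fold changes of 1.42 in miR-85(n4117) and −0.31 in WT (interaction 1.74). Y39E4B.6 had log2 fold changes of 1.31 in miR-85(n4117) and 0.32 in WT. Smaller in the mutant were the changes of R11A5.3 (9.28 in miR-85(n4117), 11.84 in WT), hsp-16.41 (7.49 in miR-85(n4117), 11.47 in WT) and hsp-70 (6.85 in miR-85(n4117), 10.08 in WT). For the inducible HSP70 genes the share of protein-coding counts overlapped between the strains after HS, at 0.781% to 1.09% in miR-85(n4117) and 0.697% to 1.03% in WT, but not in CTL animals, at 0.00246% to 0.0122% in miR-85(n4117) and 0.000337% to 0.00168% in WT. The lowest WT value is that of WT CTL replicate 3, and the next is 0.000726%. Without the mutant's CTL replicate 1, the control library lowest in these RNAs, 4 genes were called for the interaction, hsp-16.2, hsp-16.41, nhr-17 and R11A5.3, at −4.54, −4.51, −3.67 and −2.94 on the log2 scale. For hsp-110, hsp-90 and hsp-4 the interaction was −0.15, −0.15 and 0.10 on the log2 scale, with an adjusted p of 1 by edgeR. WT replicates 2 and 3 of both treatments were sequenced in another lane than the mutant libraries, and its part in these differences was not tested.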

How the data were processed

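Total RNA of whole L4 animals was depleted of ribosomal RNA and made into stranded libraries. The authors aligned reads with STAR to ce11 (WBcel235) and counted them on genes with featureCounts 1.6.5, and the headers name Ensembl release 100 and the strand setting 2. The deposited values are whole-number counts per library, without normalization, for 46904 genes. No comparisons by the authors were used. Names, classes and positions came from Ensembl release 115, which held 46817 of them. Some gene copies share a name there.

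In R 4.3.3, edgeR 4.0.16 was run on all 12 libraries in 4 groups (filterByExpr, TMM, robust quasi-likelihood, two-sided, Benjamini-Hochberg over 16585 genes). The SE was derived from each gene's log2 fold change and F statistic (their ratio, with the root of F). The design has no replicate block. Calls need a protein-coding class, a mean normalized count over 10 in the strain, a 2-fold change and an adjusted p under 0.05. Lists were described without tests by counts and medians. Folds of genes with at most 3 counts in each CTL library are bounds against 3 counts per library. Bounds and counts carry counting error of amplified reads without molecular identifiers. TPM used summed exon lengths.

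Genes named were the 12 largest rises and falls without overlap, the 5 most abundant calls each way, up to 4 calls per list or, without a call, its most abundant gene, mir-85, F49E12.8, hsp-70 and the 6 calls with the smallest interaction p, plus list members and neighbours chosen after their values were seen. The comparison and lists were chosen with earlier results of these data known. Alternatives were RLE scaling, no filter, at least 10 counts in every library, a replicate block, libraries of the strain alone, DESeq2 1.42.0, all classes, no fold limit, leaving out each mutant library and, added after the data were seen, leaving out each WT library and edgeR without its legacy option. On simulated counts (16190 genes, 200 changed 4-fold) 84.5% of changed genes were called, and 5.59% of calls were unchanged genes. Changes under 4-fold, which most of the genes called lower had, were not simulated, so the recovery does not apply to them. Promoter motifs were not analysed here.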

Additional observations from a re-analysis of the deposited data

How the results depend on the processing

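The 647 higher and 489 lower genes stayed within 1.5 times under RLE scaling (637 and 508), the strain's libraries alone (566 and 445), edgeR without its legacy option (671 and 503, chosen after seeing the data), all gene classes (949 and 498) and DESeq2 (851 and 646). Without the filter there were 520 and 567 calls. With at least 10 counts in every library 317 genes were higher and 347 lower, out of 13205 tested, since genes near 0 in CTL libraries cannot pass. Without the fold limit 968 were higher and 944 lower. Leaving out 1 mutant library gave 440 to 675 higher and 293 to 512 lower genes, with the fewest lower genes without CTL replicate 2 (293) and CTL replicate 3 (296), and 0 to 4 interaction calls, the 4 without CTL replicate 1. Leaving out 1 WT library, chosen after seeing the data, gave 579 to 730 higher and 454 to 584 lower genes in the mutant, 653 to 915 calls shared with WT in direction (862 with all libraries) and 0 interaction calls. DESeq2 called 1 gene for the interaction, ZC190.4 (1.48 on the log2 scale).

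Same-numbered HS and CTL libraries of the mutant did not deviate together (correlations −0.20, −0.34 and 0.41), so the numbers were not taken as pairs. In WT the same-numbered libraries had correlations of 0.31, 0.12 and 0.36, against −0.29 to 0.03 for WT libraries with different numbers. Pairing in WT, which enters the WT calls and the interaction, is thus possible and is left out of the main fit. With the replicate block 560 genes were higher and 432 lower, 522 and 391 of them among the main calls, and 0 were called for the interaction.

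Of 130 named genes 111 were called. Leaving out 1 mutant library gave 780 values, of which 668 kept direction and call, 101 lost the call, 1 gained it and 10 changed sign. The other settings gave 719 values, of which 687 kept both, 27 lost the call and 5 changed sign. All sign changes were in genes not called. Given as log2 fold changes, they were rpn-2 (−0.052 without the filter, −0.051 to 0.082 without a library), rsp-3 (0.019 with at least 10 counts, −0.12 to 0.12 without a library), cbd-1 (−0.048 without the filter, −0.19 with the block, −0.82 to 0.38 without a library), unc-54 (−0.077 to 0.34 without a library) and ajm-1 (−0.027 without the filter, −0.051 to 0.15 without a library). The causes were not tested. Depth limits genes near 0 in CTL animals, for which only bounds can be given.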

Other observations

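Genes called higher differed in structure from the genes tested as a whole. Their median exon length was 1047 bases and their median number of exons 4, against 1446 bases and 7 exons for genes called lower and 1341 bases and 6 exons for all protein-coding genes tested. Single-exon genes were 6.03% of the higher, 0.818% of the lower and 2.02% of all genes tested. By chromosome, the share of tested genes called higher was largest on V (6.22%) and II (5.39%) and smallest on I (2.67%), and the share called lower was largest on X (5.31%) and smallest on I (1.98%), leaving aside the mitochondrial genome with 0 of 12 genes called. These are descriptions without a test, and neighbouring genes in these runs are not independent.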
